A study of Mus musculus with 24 samples.

Results

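The genes described are 10 inflammatory and regulatory cytokine genes in mouse macrophages: *Tnf*, *Il1a*, *Il1b*, *Il6*, *Il10*, *Il12b*, *Il15*, *Il18*, *Il27* and *Il1rn*. They were taken by symbol, whatever their values, from the 35770 named genes of the expression table, and all 10 were found. The cells were bone marrow-derived macrophages (BMDMs), which are bone marrow progenitors of C57BL/6 mice matured in culture with macrophage colony-stimulating factor. For 24 h they received control media (Media) or conditioned medium (CM) made up to 75% CM, which LL2 cells had conditioned for 48 h, together with 100 nM CDDO-Me or vehicle. LL2 is a Lewis lung carcinoma line from the same mouse strain, and it was used as the wild type (WT), with a KEAP1 knockout (KEAP1 KO) or with an NRF2 knockout (NRF2 KO). The knockouts were in the cancer cells only, and every macrophage was wild type. The 8 groups were therefore Media/vehicle, WT/vehicle, KEAP1 KO/vehicle, NRF2 KO/vehicle, Media/CDDO-Me, WT/CDDO-Me, KEAP1 KO/CDDO-Me and NRF2 KO/CDDO-Me, with 3 libraries each. The labels call these independent samples without saying whether they came from separate mice, so p-values measure the spread between these samples, which may be technical. Each knockout was represented by 1 kind of CM, and the labels do not distinguish separate clones of it.

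Macrophages release cytokines as signals to other immune cells. TNF, IL-1 and IL-6 start and amplify inflammation, IL-12 family members, IL-15 and IL-18 act on T and natural killer cells, and IL-10 and the IL-1 receptor antagonist restrain the response. KEAP1 holds the antioxidant transcription factor NRF2 in check, and CDDO-Me is a synthetic triterpenoid that binds KEAP1 and releases NRF2. The data are transcript levels, and IL-1 beta and IL-18 are made as precursors that must be cleaved, so a transcript level is not a level of active cytokine.

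Levels are given as TPM, a transcript abundance corrected for transcript length and for the library total. The values were deposited under the name of length-scaled TPM gene counts and were read as TPM. Comparisons of level between genes rest on that reading, which equal library totals do not settle. Differences are log2 fold changes of log2(TPM + 1) after scaling the libraries to each other, and they understate the change of genes near or under 1 TPM. A gene was said to have risen or fallen only where limma gave a Benjamini-Hochberg adjusted p under 0.05 over all 13661 genes tested. Of the 10 members, 9 entered that test, and *Il12b* did not. *Il6* entered only through libraries with CDDO-Me, since the 9 libraries with more than 1 TPM all had received it. *Il1a* entered only through vehicle libraries, since 0 of its 10 libraries with more than 1 TPM had received CDDO-Me. Where groups are said not to overlap, this describes their libraries, since the share of all genes that lay apart in this way was not counted. A bulk library cannot tell fewer cells of a type from less RNA per cell.

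As a check of the CDDO-Me label, 5 NRF2 target genes (*Nqo1*, *Hmox1*, *Gclm*, *Srxn1* and *Txnrd1*) rose with CDDO-Me in all 4 media. Their sum with CDDO-Me had a median of 1800 TPM in WT CM and 2440 TPM in KEAP1 KO CM. It was 3450 TPM in control media and 3570 TPM in NRF2 KO CM. *Hmox1* and *Txnrd1* had a smaller effect in WT CM than in control media by limma, where 15.0% of all genes differed. In KEAP1 KO and NRF2 KO CM 0 of the 5 effects differed from control media. The part of this in the cytokine results was not tested. The 8 macrophage markers checked summed to between 14900 and 38400 TPM in every library. The 7 fibroblast markers summed to 162 to 2010 TPM, with group medians of 368 TPM in WT/CDDO-Me and 637 TPM in KEAP1 KO/CDDO-Me against 759 to 1230 TPM in the other groups. The 7 neutrophil markers summed to 11.1 to 74.2 TPM, with *Ly6g* and *Mpo* under 1 TPM in every library, and 6 dendritic cell markers to 59.3 to 414 TPM, with *Flt3* and *Ccr7* under 1 TPM. The dendritic cell sum had a median of 380 TPM in WT/vehicle and 98.1 TPM in WT/CDDO-Me, and of 273 TPM in KEAP1 KO/vehicle and 67.5 TPM in KEAP1 KO/CDDO-Me, where *Cd209a* and *Itgax* fell and *Xcr1* rose with CDDO-Me. In control media it was 175 TPM with vehicle and 253 TPM with CDDO-Me, and in NRF2 KO CM 124 and 149 TPM, and none of the 4 tested markers was called in these media. The 5 mast cell and basophil markers summed to at most 17.2 TPM, the 5 T and NK cell markers to at most 1.2 TPM, the 3 B cell markers to at most 1.42 TPM and the 3 carcinoma markers to at most 2.71 TPM. The part of these other cells in the results was not tested. Replicate 3 of NRF2 KO/vehicle and of NRF2 KO/CDDO-Me stood apart, with 15702 and 16299 genes above 0 against 17817 to 18993 in the other libraries.

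The promoters of 4 members are printed because *Tnf*, *Il1b* and *Il6* rose with CDDO-Me in KEAP1 KO CM while *Il1a* fell there. Each is the 250 bases before the transcript start in RefSeq (mouse build GRCm38.p6), read 5′ to 3′ on the gene's own strand. Capitals mark matches to the letters searched on both strands: the NF-kappaB consensus, GAAANNGAA (the core of interferon-stimulated elements), TGANTCA (AP-1), TTGCNNAA (C/EBP) and TGACNNNGC (the core of the antioxidant response element to which NRF2 binds).
Tnf promoter, chr17:35202008-35202257, minus strand: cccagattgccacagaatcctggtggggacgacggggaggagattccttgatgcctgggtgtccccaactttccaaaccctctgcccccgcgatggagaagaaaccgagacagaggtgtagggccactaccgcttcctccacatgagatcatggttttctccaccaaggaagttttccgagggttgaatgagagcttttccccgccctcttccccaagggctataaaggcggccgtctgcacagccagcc
Il1b promoter, chr2:129371140-129371389, minus strand: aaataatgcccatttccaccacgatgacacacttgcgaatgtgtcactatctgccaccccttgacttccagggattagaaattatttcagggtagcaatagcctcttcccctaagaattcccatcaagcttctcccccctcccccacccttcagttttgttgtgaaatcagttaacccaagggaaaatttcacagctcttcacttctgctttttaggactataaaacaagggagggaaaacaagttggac
Il6 promoter, chr5:30012864-30013113, plus strand: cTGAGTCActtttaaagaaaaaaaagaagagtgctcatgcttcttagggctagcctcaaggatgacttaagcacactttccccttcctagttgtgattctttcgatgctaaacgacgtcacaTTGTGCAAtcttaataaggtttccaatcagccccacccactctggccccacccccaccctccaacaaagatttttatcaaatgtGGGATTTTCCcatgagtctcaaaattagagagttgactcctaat
Il1a promoter, chr2:129309973-129310222, minus strand: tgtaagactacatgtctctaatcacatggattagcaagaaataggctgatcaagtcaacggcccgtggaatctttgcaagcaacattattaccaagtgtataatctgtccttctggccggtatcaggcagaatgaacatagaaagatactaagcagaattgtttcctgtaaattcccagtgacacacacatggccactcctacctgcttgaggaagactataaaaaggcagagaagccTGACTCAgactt
The *Il6* window held an NF-kappaB match at bases -44 to -35 from the start, a C/EBP match on the minus strand at -128 to -121 and an AP-1 match at -249 to -243. The *Il1a* window held an AP-1 match at -12 to -6. The windows of *Tnf* and *Il1b* held none of these letters, which says nothing about the factors. Among 32841 mouse promoter windows of the same length, 3.9% held the NF-kappaB letters, 6.75% AP-1, 9.57% C/EBP, 7.13% the interferon-stimulated core and 10.2% the antioxidant core. RefSeq entries were found for 7 of the 10 members, with *Il10*, *Il15* and *Il27* lacking one. Of the others, the first of 3 *Il1rn* windows held an AP-1 match at -141 to -135, and *Il12b*, *Il18* and the other *Il1rn* windows held none.

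**Figure D1:**
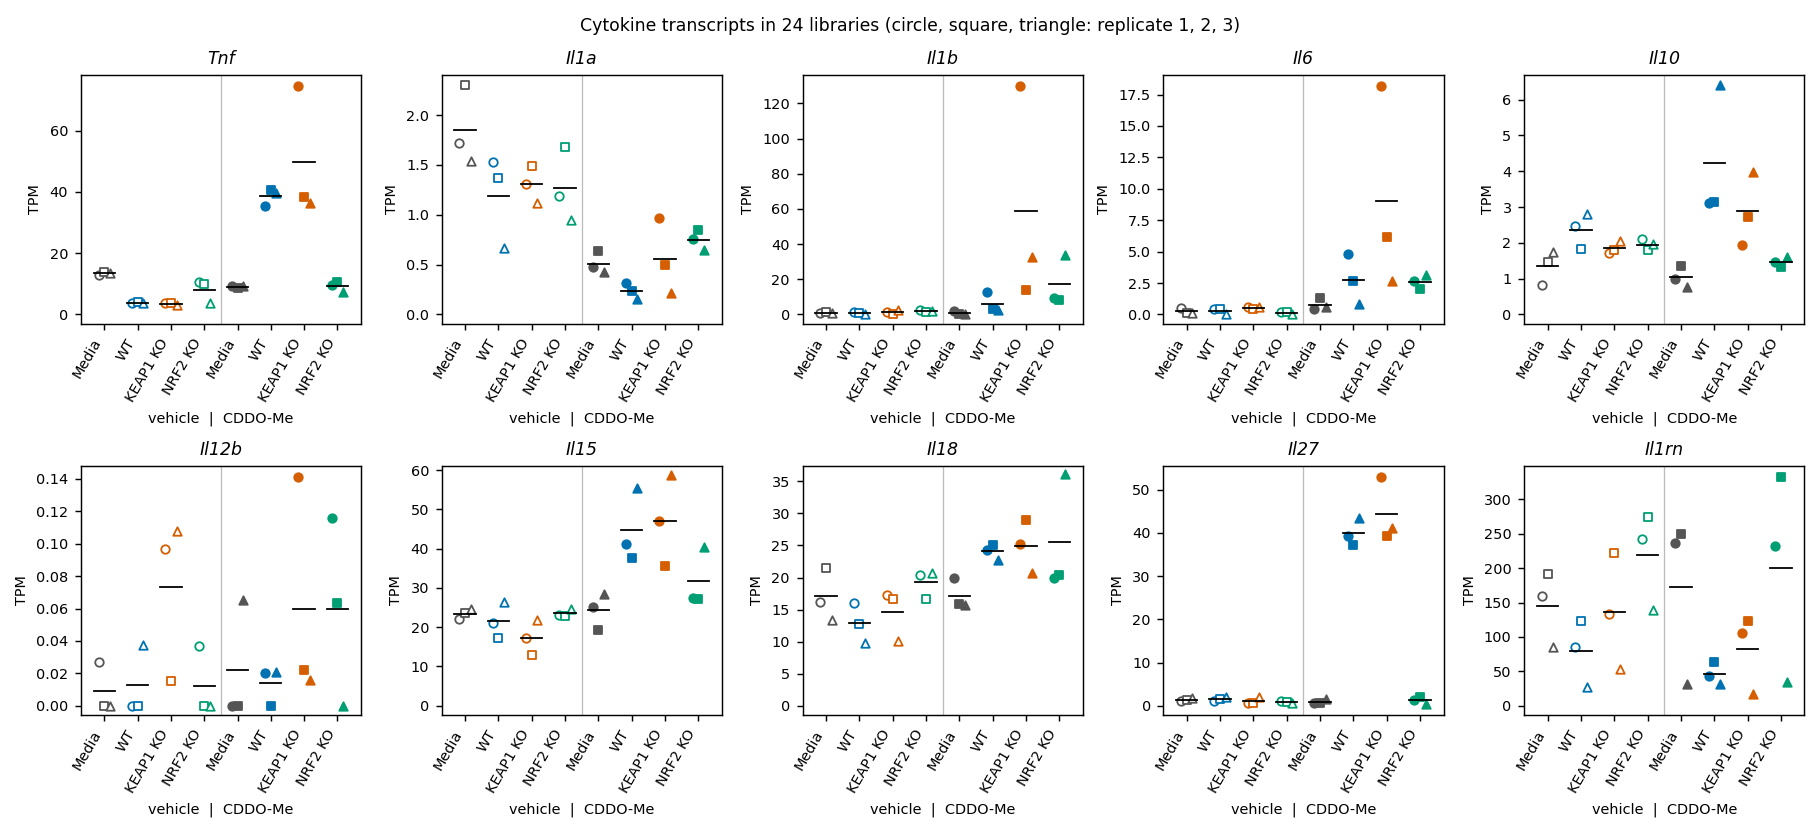
TPM of the 10 cytokine genes in each of 24 libraries, with open symbols for vehicle, filled symbols for CDDO-Me, a symbol shape per replicate number and a line at the mean of 3 libraries. *Tnf* and *Il27* stand highest in WT/CDDO-Me and KEAP1 KO/CDDO-Me, where *Il27* lies between 37.2 and 52.9 TPM, and *Il12b* stays at or under 0.141 TPM in every library.

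The first comparison asked what cancer CM did to these genes in BMDMs given vehicle. *Tnf* was the member that changed, and it fell with WT CM and with KEAP1 KO CM. *Tnf* (chr17:35418357-35420983, minus strand, GRCm39) encodes tumor necrosis factor, the early inflammatory cytokine of macrophages. It measured 12.9, 13.9 and 13.4 TPM in the Media/vehicle libraries. In WT/vehicle BMDMs it measured 3.79, 4.07 and 3.79 TPM, and in KEAP1 KO/vehicle BMDMs 3.86, 3.85 and 2.94 TPM. Both CM groups lay wholly below the Media/vehicle group. The log2 fold change was -1.50 (SE 0.24, limma adjusted p = 0.000386) for WT/vehicle against Media/vehicle and -1.67 (SE 0.24, adjusted p = 0.00011) for KEAP1 KO/vehicle. These were 1 of 10 members in each comparison, where 7.34% and 7.96% of all genes tested were called. The same Media/vehicle libraries serve in each comparison.

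With NRF2 KO CM, *Tnf* measured 10.5, 9.98 and 3.81 TPM. The first pair of libraries lay between the Media/vehicle and WT/vehicle groups, and replicate 3, a library with few genes detected, lay within the WT/vehicle range. Against Media/vehicle the log2 fold change was -0.74 (SE 0.24, limma adjusted p = 0.395). In that comparison 0 of 10 members and 0.00732% of all genes were called by limma, with 1 member, *Tnf*, at an unadjusted p under 0.05. WT/vehicle BMDMs differed from NRF2 KO/vehicle BMDMs in *Tnf* by -0.76 (SE 0.24, limma adjusted p = 0.0512), so 0 of 10 members were called where 10.7% of all genes were, with *Tnf* and *Il18* (2 members) at an unadjusted p under 0.05. Without NRF2 KO/vehicle replicate 3 that difference was -1.12 with an adjusted p of 0.0017, which is a call. KEAP1 KO/vehicle and WT/vehicle BMDMs differed in 0 of 10 members and in 0% of all genes by limma, with 0 members and 341 genes at an unadjusted p under 0.05. For *Tnf* the interval of that difference ran from -0.67 to 0.34 on the log2 scale. For *Il6*, which was under 1 TPM in every library of both groups, it ran from -0.66 to 1.17. The *Il6* values of these groups did not overlap, which is a description and not a call.

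The remaining members were not called for any CM with vehicle, although array weights added *Il15* as lower with KEAP1 KO CM (-0.45, limma adjusted p = 0.024) and *Il10* as higher with WT CM (0.62, adjusted p = 0.00725). *Il10* had a log2 fold change of 0.57 (limma adjusted p = 0.176) for WT/vehicle against Media/vehicle, with 2.47, 1.82 and 2.79 TPM against 0.819, 1.47 and 1.75 TPM. Those 6 values did not overlap, which is a description and not a call. Of the 18 receptor and decoy genes of these cytokines, 15 were tested. With WT CM 3 rose and 1 fell, where 7.34% of all genes were called. The median log2 fold change was 0.13 over the 15, against 0.01 over all genes. The 3 that rose were *Il6st*, the signal-transducing chain shared by the IL-6 and IL-27 receptors (log2 fold change 1.37, limma adjusted p = 9.06e-08), *Il1r1*, the IL-1 receptor (1.14, adjusted p = 0.013), and *Il1rap*, its accessory chain (0.64, adjusted p = 0.0242). *Il10ra*, the ligand-binding chain of the IL-10 receptor, fell by 0.48 on the log2 scale (adjusted p = 0.037). KEAP1 KO CM gave 3 higher and 3 lower receptor genes, led by *Il6st* at 1.38 (limma adjusted p = 8.41e-08), where 7.96% of all genes were called. NRF2 KO CM gave 0 called by limma, where 0.00732% of all genes were. With the replicate number as a block, 4 rose and 3 fell with WT CM, where 12.7% of all genes were called. *Adam17*, the protease that sheds TNF from the cell surface, was the only one of 5 processing genes called in a CM against control media with vehicle, and it fell by 0.52 with WT CM (adjusted p = 0.00415) and by 0.60 with KEAP1 KO CM (adjusted p = 0.000977).

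The second comparison asked what CDDO-Me did in each medium. In WT CM it raised 6 members and lowered 1, and in KEAP1 KO CM it likewise raised 6 and lowered 1, whereas in control media it lowered 1 and in NRF2 KO CM it raised 2. *Il27* and *Tnf* had the smallest adjusted p-values of the members in both WT and KEAP1 KO CM. The share of all genes called was 27.8% in WT CM, 28.8% in KEAP1 KO CM, 6.01% in control media and 9.77% in NRF2 KO CM. The median log2 fold change of the 9 tested members was 1.12 in WT CM and 1.57 in KEAP1 KO CM, against -0.03 and -0.02 over all genes. Without scaling of the libraries these medians over all genes became -0.12 and -0.17.

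**Figure D2:**
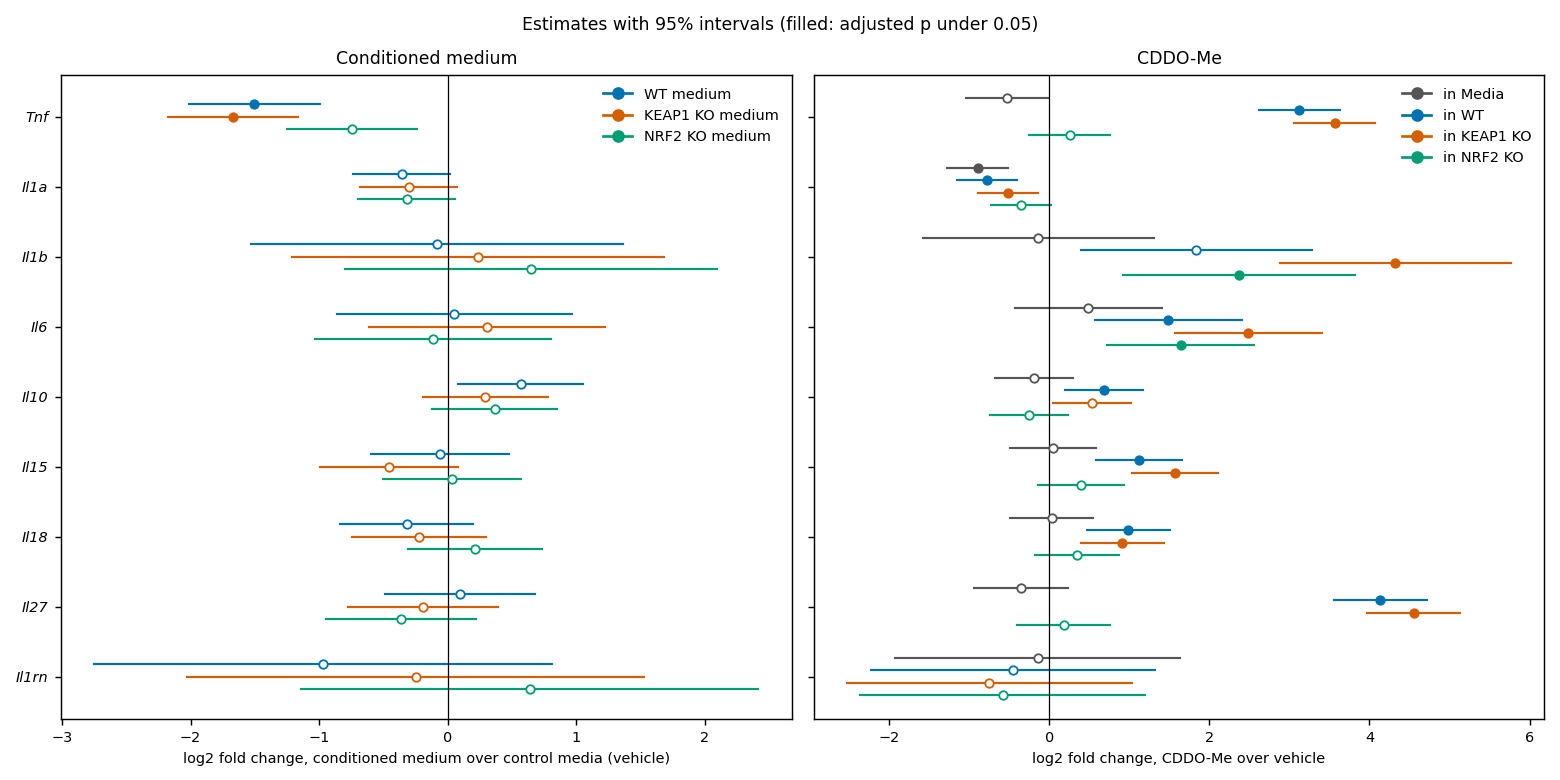
Log2 fold changes of log2(TPM + 1) with 95% intervals for the 9 tested members, on the left for each conditioned medium over control media with vehicle and on the right for CDDO-Me over vehicle in each medium, with filled points for an adjusted p under 0.05. On the left *Tnf* is the member with filled points, at -1.50 and -1.67, and on the right *Il27* and *Tnf* lie between 3.13 and 4.55 in WT and KEAP1 KO CM.

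*Il27* (chr7:126188181-126194209, minus strand, GRCm39) encodes the p28 subunit of IL-27, a regulator of T cells that pairs with EBI3. It was listed at 0.327 to 2.14 TPM in the 18 libraries outside WT/CDDO-Me and KEAP1 KO/CDDO-Me. In WT/CDDO-Me BMDMs it reached 39.3, 37.2 and 43.5 TPM, against 1.03, 1.51 and 2.11 TPM with vehicle. In KEAP1 KO/CDDO-Me BMDMs it reached 52.9, 39.2 and 41.2 TPM, against 0.712, 0.741 and 2.14 TPM with vehicle. The groups were far apart, with a log2 fold change of 4.14 (SE 0.28, limma adjusted p = 5.48e-10) in WT CM and 4.55 (SE 0.28, adjusted p = 1.39e-10) in KEAP1 KO CM. In NRF2 KO CM the CDDO-Me libraries measured 1.34, 2.09 and 0.327 TPM against 1.08, 0.934 and 0.604 TPM, and the log2 fold change was 0.18 (95% interval -0.41 to 0.76). In control media it was -0.36 (-0.94 to 0.23). *Ebi3*, the partner subunit, rose too, by 0.43 in WT CM (adjusted p = 0.0404, and 0.0917 without scaling) and by 0.56 in KEAP1 KO CM (adjusted p = 0.00763), and it was at 26.6 to 63.2 TPM in every library. In control media its change of -0.48 was called with the replicate number as a block (adjusted p = 0.0407). In a ratio chosen after the values were seen, *Ebi3* exceeded *Il27* 20.6 to 49.3 times in WT/vehicle and KEAP1 KO/vehicle libraries and 1.02 to 1.61 times in the WT/CDDO-Me and KEAP1 KO/CDDO-Me libraries. *Il27ra*, the receptor, was among the 5 receptor genes that fell with CDDO-Me in both CMs.

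*Tnf* was low in WT and KEAP1 KO CM with vehicle and high in the same CMs with CDDO-Me. It measured 35.4, 40.7 and 39.5 TPM in WT/CDDO-Me BMDMs and 74.7, 38.4 and 36.5 TPM in KEAP1 KO/CDDO-Me BMDMs. All 6 libraries lay above every library of the other 6 groups, and KEAP1 KO/CDDO-Me replicate 1 was the highest. The log2 fold change over vehicle was 3.13 (SE 0.24, limma adjusted p = 4.66e-09) in WT CM and 3.57 (SE 0.24, adjusted p = 6.49e-10) in KEAP1 KO CM. In control media *Tnf* measured 9.20, 8.49 and 9.19 TPM with CDDO-Me. All 3 values lay below those of Media/vehicle, and the log2 fold change of -0.53 did not pass the test (SE 0.24, adjusted p = 0.279). In NRF2 KO CM it measured 9.45, 10.7 and 7.32 TPM with CDDO-Me, and the log2 fold change was 0.25 (95% interval -0.25 to 0.76). *Tnfrsf1a*, the main TNF receptor, was among the receptor genes that rose in WT, KEAP1 KO and NRF2 KO CM, the last of these not without scaling (adjusted p = 0.114). *Tnfrsf1b*, the inducible TNF receptor, rose in control media (1.12, adjusted p = 0.000759) and in NRF2 KO CM (1.37, adjusted p = 6.5e-05). It was not called in WT or KEAP1 KO CM with all libraries and scaling. In WT CM it was called as lower without scaling (-0.56, adjusted p = 0.0395) and without the 2 libraries with few genes (-0.40, adjusted p = 0.0493).

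The difference between the CDDO-Me effects was itself tested. *Tnf* (3.65, SE 0.34, limma adjusted p = 1.66e-07) and *Il27* (4.49, SE 0.39, adjusted p = 6.67e-08) had a larger effect in WT CM than in control media, which were 2 of 10 members where 15.0% of all genes differed. In KEAP1 KO CM 5 of 10 members had a larger effect than in control media, where 14.7% of all genes differed. They were *Tnf* (4.10), *Il27* (4.91), *Il1b* (4.46, adjusted p = 0.00302), *Il15* (1.52, adjusted p = 0.00578) and *Il6* (2.00, adjusted p = 0.034). The call for *Il6*, which the filter had admitted only through CDDO-Me libraries, was lost in 9 of the 12 fits that left out 1 library, with no filter (adjusted p = 0.0666) and with a pseudocount of 0.1 (adjusted p = 0.212). *Il15* in WT CM was at the threshold (1.08, adjusted p = 0.0502), and 8 of 12 alternatives called it. NRF2 KO CM against control media gave 0 members and 0% of all genes by limma, with 3 members and 374 genes at an unadjusted p under 0.05. KEAP1 KO CM against WT CM gave 0 members and 0% of all genes by limma, with 1 member, *Il1b*, and 225 genes at an unadjusted p under 0.05.

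*Il1b* (chr2:129206490-129213059, minus strand, GRCm39) encodes IL-1 beta, the main secreted IL-1 agonist. It was at or under 2.60 TPM in each vehicle library. In WT/CDDO-Me BMDMs it measured 12.5, 3.31 and 2.31 TPM, and in NRF2 KO/CDDO-Me BMDMs 9.35, 8.44 and 33.7 TPM. In KEAP1 KO/CDDO-Me BMDMs it measured 130, 13.8 and 32.5 TPM. The libraries of a group were far apart, and replicate 1 was the highest of WT/CDDO-Me and of KEAP1 KO/CDDO-Me. CDDO-Me changed *Il1b* by 4.33 (SE 0.69, limma adjusted p = 5.68e-05) on the log2 scale in KEAP1 KO CM, and this stayed between 3.46 and 5.10 when any 1 of the 6 libraries was left out. It was 2.37 (SE 0.69, adjusted p = 0.0343) in NRF2 KO CM, where the call was lost in 4 of the 6 fits that left out 1 library and in 6 of 12 other alternatives. Leaving out NRF2 KO/CDDO-Me replicate 3 gave 1.72 (adjusted p = 0.146), and leaving out replicate 1, 2 or 3 of NRF2 KO/vehicle gave adjusted p-values of 0.0536, 0.0894 and 0.0526. In WT CM it was 1.84 (SE 0.69, adjusted p = 0.0548), just short of a call. There 7 of 12 alternatives called it, as did 1 of the 6 fits that left out 1 library. In control media the libraries measured 2.10, 0.418 and 0.114 TPM with CDDO-Me against 0.765, 1.15 and 0.712 TPM with vehicle, and the groups overlapped.

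*Il6* (chr5:30218112-30224979, plus strand, GRCm39), which encodes the acute-phase cytokine IL-6, was low throughout. It was listed at 0 in WT/vehicle replicate 3 and in NRF2 KO/vehicle replicate 3 and at 0.121 to 0.594 TPM in the other 10 vehicle libraries. With CDDO-Me it measured 4.83, 2.62 and 0.821 TPM in WT CM, 18.2, 6.17 and 2.70 TPM in KEAP1 KO CM and 2.65, 2.05 and 3.11 TPM in NRF2 KO CM. None of these 9 values overlapped the vehicle range of its own medium. This separation is only a description, because the filter had admitted *Il6* through CDDO-Me libraries alone. *Il6* rose by 1.49 (SE 0.44, limma adjusted p = 0.0142) on the log2 scale in WT CM, 2.48 (adjusted p = 0.000167) in KEAP1 KO CM and 1.64 (adjusted p = 0.0202) in NRF2 KO CM. In these 3 comparisons 27.8%, 28.8% and 9.77% of all genes were called, and the calls of *Il6* also held with no filter. The WT call was lost without WT/vehicle replicate 3 (adjusted p = 0.0631) or WT/CDDO-Me replicate 1 (adjusted p = 0.098). The NRF2 KO call was lost in 3 of 6 such fits, without NRF2 KO/vehicle replicate 3 (adjusted p = 0.0514), NRF2 KO/CDDO-Me replicate 1 (adjusted p = 0.0546) or NRF2 KO/CDDO-Me replicate 3 (adjusted p = 0.0682). In control media *Il6* measured 0.454, 1.28 and 0.617 TPM with CDDO-Me (log2 fold change 0.49, adjusted p = 0.758). Without replicate 3 of both NRF2 KO groups, the calls of *Il1b* and *Il6* in NRF2 KO CM were lost, with adjusted p-values of 0.2 and 0.135. The neutrophil marker sum moved with CDDO-Me in the same media, from a median of 12.8 to 43.3 TPM in WT CM, 21.7 to 71.9 TPM in KEAP1 KO CM and 18 to 52.3 TPM in NRF2 KO CM, against 26.8 to 34.5 TPM in control media. Of the 4 neutrophil markers tested, *S100a8* was the 1 called in these CMs, where 27.8%, 28.8% and 9.77% of all genes were called. It rose in WT CM (2.17, adjusted p = 0.000449), KEAP1 KO CM (2.55, adjusted p = 8.04e-05) and NRF2 KO CM (1.77, adjusted p = 0.00913), and in control media its value was 1.10 (adjusted p = 0.156). The median log2 fold change of the 4 markers was 0.20, 0.54 and 0.60 in these CMs and 0.16 in control media. The part of neutrophils in *Il1b* and *Il6* was not tested.

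*Il1a* (chr2:129140291-129152098, minus strand, GRCm39) encodes IL-1 alpha, which acts on the same receptor as IL-1 beta, and it went the other way. It measured 1.72, 2.30 and 1.54 TPM in Media/vehicle and 0.475, 0.632 and 0.421 TPM in Media/CDDO-Me. In WT CM it measured 1.53, 1.37 and 0.669 TPM with vehicle and 0.320, 0.240 and 0.158 TPM with CDDO-Me. The groups did not overlap in either medium. This separation is only a description, because the filter on low values had admitted *Il1a* through vehicle libraries alone. In these media 6.01% and 27.8% of all genes were called, and *Il1a* was the 1 member of 10 called in control media. The log2 fold change was -0.89 (SE 0.18, limma adjusted p = 0.00361) in control media and -0.78 (SE 0.18, adjusted p = 0.00237) in WT CM. The calls of *Il1a* in control media, WT CM and KEAP1 KO CM also held with no filter. Its log2 fold change in KEAP1 KO CM was -0.52 (adjusted p = 0.0365), a call that was lost in 5 of the 6 fits that left out 1 library. In NRF2 KO CM it was -0.36 (adjusted p = 0.28). The 3 CDDO-Me effects on *Il1a* in CM were not found to differ from that in control media.

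*Il1rn* (chr2:24226865-24241506, plus strand, GRCm39) encodes the IL-1 receptor antagonist, and it had the highest mean of the members in each of the 8 groups. It measured 160, 191 and 85.0 TPM in Media/vehicle and 85.4, 124 and 27.6 TPM in WT/vehicle. In KEAP1 KO/vehicle it measured 133, 223 and 52.9 TPM and in NRF2 KO/vehicle 243, 274 and 140 TPM. In each of the 8 groups replicate 3 was the lowest and replicate 2 the highest. With CDDO-Me it measured 236, 249 and 31.8 TPM in control media, 43.9, 63.8 and 31.9 TPM in WT CM, 105, 123 and 17.1 TPM in KEAP1 KO CM and 232, 333 and 34.9 TPM in NRF2 KO CM. The standard error of each difference was 0.85 on the log2 scale, and no comparison of *Il1rn* passed the test. With the replicate number as a block, *Il1rn* was lower in WT/CDDO-Me than in Media/CDDO-Me BMDMs (log2 fold change -1.28, limma adjusted p = 0.0185). With array weights it was also lower in WT/vehicle than in NRF2 KO/vehicle BMDMs (-1.51, adjusted p = 0.0463). *Il15* also followed the replicate numbers, in the other direction, with replicate 3 the highest in all 8 groups.

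**Figure D3:**
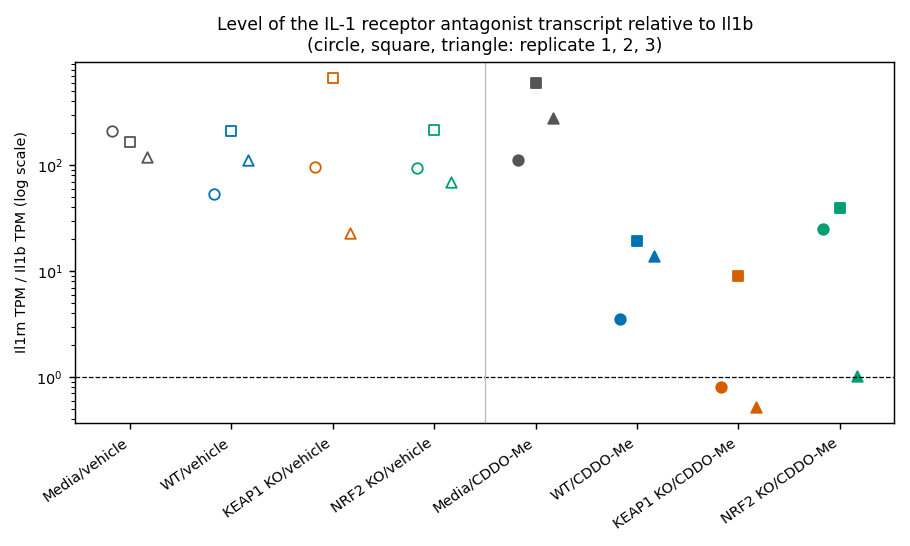
Ratio of *Il1rn* to *Il1b* TPM in each of 24 libraries on a log axis, with open symbols for vehicle, filled symbols for CDDO-Me and a dashed line at equal levels. The ratio lies between 23.0 and 662 in the 12 vehicle libraries and falls below 1 in 2 of the 3 KEAP1 KO/CDDO-Me libraries.

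The ratio of *Il1rn* to *Il1b*, chosen after the values were seen, sets the antagonist against the agonist within a library. It was 119 to 209 in Media/vehicle and 112 to 597 in Media/CDDO-Me. In WT CM it was 53.1 to 212 with vehicle and 3.51 to 19.3 with CDDO-Me. In KEAP1 KO CM it was 23.0 to 662 with vehicle and 0.525, 0.809 and 8.94 with CDDO-Me, so that *Il1b* exceeded *Il1rn* in 2 libraries. In NRF2 KO CM it was 70.1 to 216 with vehicle and 1.03 to 39.4 with CDDO-Me. The ratios with CDDO-Me lay below those with vehicle in each cancer CM, without overlap, and overlapped in control media. The ratios were not tested, and their level rests on reading the values as corrected for transcript length.

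The cytokines that act on lymphocytes formed a further group. *Il15* (chr8:83054226-83129874, minus strand, GRCm39) encodes IL-15, a growth factor of natural killer and memory T cells. It measured 21.2, 17.3 and 26.5 TPM in WT/vehicle and 41.2, 37.7 and 55.3 TPM in WT/CDDO-Me. In KEAP1 KO CM it measured 17.1, 12.8 and 21.7 TPM with vehicle and 47.0, 35.5 and 58.8 TPM with CDDO-Me. The groups did not overlap in either CM, where 27.8% and 28.8% of all genes were called. *Il15* rose by 1.13 (SE 0.26, limma adjusted p = 0.00203) in WT CM and 1.57 (SE 0.26, adjusted p = 7.31e-05) in KEAP1 KO CM. It was at 25.1, 19.4 and 28.4 TPM in Media/CDDO-Me against 22.1, 23.5 and 24.5 TPM in Media/vehicle. In NRF2 KO CM it was at 27.3, 27.2 and 40.4 TPM against 23.1, 22.7 and 24.7 TPM (0.39, adjusted p = 0.435), and it was called there with the replicate number as a block (adjusted p = 0.0362). *Il15ra*, which presents IL-15 to other cells, rose by 2.49 (adjusted p = 4.76e-10) in WT CM and 2.55 (adjusted p = 3.48e-10) in KEAP1 KO CM.

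*Il18* (chr9:50466081-50493633, plus strand, GRCm39) encodes IL-18, an inducer of interferon gamma. It measured 15.9, 12.8 and 9.83 TPM in WT/vehicle and 24.3, 25.1 and 22.7 TPM in WT/CDDO-Me. In KEAP1 KO CM it measured 17.3, 16.6 and 10.1 TPM with vehicle and 25.2, 28.9 and 20.7 TPM with CDDO-Me. The log2 fold change was 0.99 (SE 0.25, limma adjusted p = 0.00458) in WT CM and 0.91 (SE 0.25, adjusted p = 0.00783) in KEAP1 KO CM, where the call was lost without KEAP1 KO/vehicle replicate 3 (adjusted p = 0.0563). In control media it was 0.03 (95% interval -0.49 to 0.55) and in NRF2 KO CM 0.35 (-0.17 to 0.87). *Il18bp*, the secreted decoy that neutralizes IL-18, rose as well, from 7.48 to 15.9 TPM in WT/vehicle to 211 to 217 TPM in WT/CDDO-Me (4.30, adjusted p = 7.55e-10). It rose by 4.97 in KEAP1 KO CM (adjusted p = 9.07e-11) and by 1.08 in NRF2 KO CM (adjusted p = 0.0241, and 0.0789 without the 2 libraries with few genes). In control media its log2 fold change was 0.94 (adjusted p = 0.0722), which was a call with the replicate number as a block (adjusted p = 0.00362), without scaling (adjusted p = 0.0351) and without those 2 libraries (adjusted p = 0.0183). The level of *Il18bp* was 0.293 to 1.62 times that of *Il18* in the vehicle libraries and 7.78 to 10.3 times in the WT/CDDO-Me and KEAP1 KO/CDDO-Me libraries, again a ratio chosen after the values were seen.

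*Il12b* (chr11:44290808-44305505, plus strand, GRCm39), which encodes the p40 subunit of IL-12 and IL-23, was at or under 0.141 TPM in every library and listed at 0 in 10 of 24. It was not tested. Its partner subunits *Il12a* and *Il23a* were also too low to test, at no more than 0.306 and 0.258 TPM in any library.

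*Il10* (chr1:130947581-130952711, plus strand, GRCm39) encodes IL-10, which dampens macrophage activation. It measured 3.12, 3.15 and 6.42 TPM in WT/CDDO-Me against 2.47, 1.82 and 2.79 TPM in WT/vehicle. The groups did not overlap, and replicate 3 was the highest of WT/CDDO-Me. The log2 fold change was 0.68 (SE 0.23, limma adjusted p = 0.0338), and without WT/CDDO-Me replicate 3 it was 0.39 with an adjusted p of 0.25. The call was also lost without WT/vehicle replicate 1 (adjusted p = 0.0663) or replicate 2 (adjusted p = 0.155). It was lost as well without scaling (limma adjusted p = 0.0533), with no filter (0.0628), with a pseudocount of 0.1 (0.0555) and with the groups alone (0.086). With KEAP1 KO CM it measured 1.93, 2.72 and 3.99 TPM with CDDO-Me against 1.72, 1.80 and 2.05 TPM (0.53, adjusted p = 0.102). In control media and NRF2 KO CM the log2 fold changes were -0.19 and -0.25, with adjusted p-values of 0.872 and 0.622. The 2 chains of the IL-10 receptor moved apart: *Il10ra* rose by 2.05 in WT CM (adjusted p = 4.26e-10) and by 1.95 in KEAP1 KO CM (adjusted p = 8.89e-10), while *Il10rb*, a chain shared with other receptors, fell by 1.23 (adjusted p = 6.36e-09) and 1.34 (adjusted p = 1.76e-09). *Il10rb* also fell in control media, by 0.76 (adjusted p = 3.48e-05), and in NRF2 KO CM, by 0.70 (adjusted p = 6.18e-05).

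Over the whole receptor and decoy list, CDDO-Me raised 7 and lowered 5 of the 15 tested genes in WT CM, and raised 8 and lowered 5 in KEAP1 KO CM. Their median log2 fold change was 0.65 and 1.00, against -0.03 and -0.02 over all genes, of which 27.8% and 28.8% were called. In control media 1 rose and 1 fell, and in NRF2 KO CM 3 rose and 1 fell. Of all genes, 6.01% and 9.77% were called there. With the replicate number as a block these were 3 and 1 in control media and 5 and 2 in NRF2 KO CM. Of all genes, 10.7% and 14.6% were then called. The 5 processing genes rose in WT CM and in KEAP1 KO CM, save that *Adam17* was not called in WT CM without scaling (adjusted p = 0.146), and 0 of them were called in control media or NRF2 KO CM by limma. Those with the smallest adjusted p-values were *Nlrp3*, the sensor of the inflammasome that activates caspase-1 (1.86 in WT CM, adjusted p = 1.68e-06), *Gsdmd*, the pore through which mature IL-1 beta leaves the cell (1.37, adjusted p = 1.43e-05), *Casp1*, the protease that cleaves IL-1 beta and IL-18 (1.62, adjusted p = 6.87e-05), and *Casp4* (1.64, adjusted p = 0.000718). In KEAP1 KO CM the same 4 genes rose by 2.04, 1.58, 1.92 and 2.22.

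**Figure D4:**
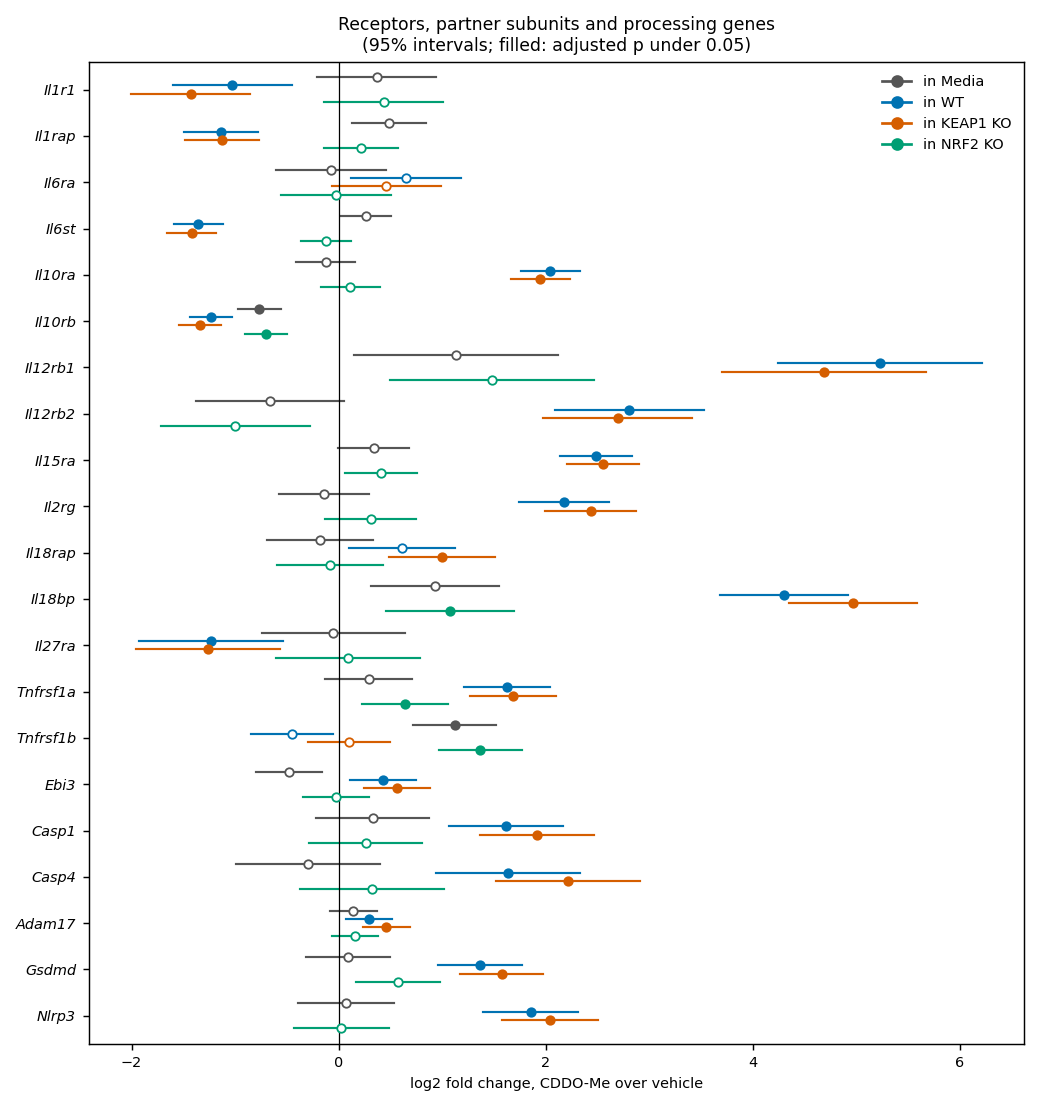
Log2 fold changes of log2(TPM + 1) with 95% intervals for CDDO-Me over vehicle in each medium, for the 15 tested receptor and decoy genes, *Ebi3* and the 5 processing genes, with filled points for an adjusted p under 0.05. *Il18bp* lies at 4.30 and 4.97 in WT and KEAP1 KO CM, *Il6st* and *Il10rb* lie below 0 in both, and *Tnfrsf1b* is filled in control media and NRF2 KO CM.

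The last comparisons were among the CDDO-Me groups. WT/CDDO-Me BMDMs were higher than Media/CDDO-Me BMDMs in 5 of 10 members, where 26.8% of all genes were called. They were *Il27* (4.59, SE 0.28, limma adjusted p = 1.36e-10), *Tnf* (2.15, SE 0.24, adjusted p = 1.17e-06), *Il10* (1.44, SE 0.23, adjusted p = 8.74e-05), *Il15* (1.02, SE 0.26, adjusted p = 0.00509) and *Il1b* (1.89, SE 0.69, adjusted p = 0.0497). *Il1b* was at the threshold and its call was lost in 4 of the 6 fits that left out 1 library. *Il6* was called with the replicate number as a block (1.05, adjusted p = 0.0487). KEAP1 KO/CDDO-Me and WT/CDDO-Me BMDMs differed in 0 of 10 members by limma, where 0.0512% of all genes were called, with *Il1b* and *Il6* (2 members) at an unadjusted p under 0.05. The difference was 2.81 for *Il1b* (SE 0.69, adjusted p = 0.223) and 1.25 for *Il6* (SE 0.44, adjusted p = 0.721), and KEAP1 KO/CDDO-Me replicate 1 held the highest value of both genes. For *Il27*, *Tnf* and *Il15* the 95% intervals of the difference were -0.46 to 0.71, -0.23 to 0.78 and -0.49 to 0.58. The neutrophil markers summed to 65.6 to 74.2 TPM in KEAP1 KO/CDDO-Me and 33.5 to 59.4 TPM in WT/CDDO-Me libraries. Of the 4 that were tested, 0 were called between these groups, and the part of neutrophils in the differences was not tested.

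Across the 8 group means the members fell into unlike patterns, given here as a description because the means share libraries of 1 series. The group mean of *Tnf* was highest in KEAP1 KO/CDDO-Me (49.9 TPM) and WT/CDDO-Me (38.5 TPM), then Media/vehicle (13.4 TPM), and lowest in WT/vehicle (3.88 TPM) and KEAP1 KO/vehicle (3.55 TPM). The mean of *Il1b* was highest in KEAP1 KO/CDDO-Me (58.7 TPM), then NRF2 KO/CDDO-Me (17.2 TPM) and WT/CDDO-Me (6.04 TPM). The libraries of neighbouring groups overlapped for the upper pair of *Tnf* and for each step of *Il1b*. *Il27* spanned 4.72 and *Il1b* 4.69 on the log2 scale between the highest and the lowest group, while *Il18* spanned 1.01. Among 4325 genes that spanned at least 1, those closest to *Il27* by Pearson's r over the 8 groups were *Gbp11*, *Igtp* and *Tap1* (0.998 each). Those closest to *Tnf* were *Ctsh* (0.987), *Rtl5* (0.984) and *Tlr9* (0.979). Those closest to *Il1b* were *Tnfsf11* (0.994), *Cxcl1* (0.974) and *Ighv6-3* (0.941), and *Il6* was closest to *Ighv6-3* (0.988). The gene closest to *Il15* was *Aif1* (0.985), that closest to *Il10* was *Prkd3* (0.982), and that closest to *Il1a* was *Cxcl14* (0.963). *Il18* was closest to *Bco2* (0.981) and *Il1rn* to *BC034090* (0.982).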

How the data were processed

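Poly-A RNA of 24 BMDM libraries was sequenced, and per the labels kallisto was used with the GRCm39 build. The authors deposited 1 table of TPM per gene and library. Each column summed to the same total, as TPM do, so the depth of each single library is unknown and no count test was used. One row without a gene name (0.0199 to 0.0635% of TPM) was left out.

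TPM were scaled by trimmed means of M values (trimming 30% of ratios and 5% of levels, factors 0.91 to 1.109), genes above 1 TPM in at least 3 libraries were kept, and log2(TPM + 1) was fitted over all 8 groups with limma 3.58.1 in R 4.3.3 (moderated test with a trend, two-sided, 16 residual degrees of freedom, no replicate block). P-values were adjusted by Benjamini-Hochberg over all 13661 genes, with a call at an adjusted p under 0.05. The procedure was tested on simulated data. The members and lists were chosen with earlier results of these data known. From each pathway list, at most 4 called genes per comparison were named by smallest adjusted p, with *Ebi3*, *Tnfrsf1a*, *Il27ra* and the markers *S100a8*, *Cd209a*, *Itgax* and *Xcr1* named beyond it after their values were seen.

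Replicate numbers are in the labels, which do not say what they share. Same-numbered libraries deviated from their group means together (mean r 0.256 over 84 pairs, 71 above 0.1). Every pair exceeded 0.1 in 6 of the comparisons, among them WT/CDDO-Me against Media/CDDO-Me and CDDO-Me against vehicle in NRF2 KO CM, and there a value with the replicate number as a block is given beside a result whose call it changed. Scaling, filter, pseudocount, array weights, the block, the groups fitted alone and left-out libraries were the alternatives. Gene positions are from GENCODE (GRCm39), promoters from RefSeq (GRCm38.p6), and figures were drawn with matplotlib 3.10.9.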

Additional observations from a re-analysis of the deposited data

Results flagged for a closer look

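The CDDO-Me effect differed between media by an interaction term in limma for the following members, each on the log2 scale. WT CM exceeded control media by 3.653 for *Tnf* and 4.492 for *Il27*. KEAP1 KO CM exceeded control media by 4.095 for *Tnf*, 4.907 for *Il27*, 4.46 for *Il1b*, 1.999 for *Il6* and 1.523 for *Il15*. All 3 libraries of the CDDO-Me group lay above all 3 of the vehicle group for each of these members in that CM. This adds no support, because the members were picked by the interaction in the same libraries. The filter had also admitted *Il6* only through CDDO-Me libraries. For CDDO-Me against vehicle, 27.8% (WT CM) and 28.8% (KEAP1 KO CM) of all genes were called. No group held more than 3 libraries, so single libraries were not tested for standing apart.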

How the results depend on the processing

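No called member reversed its direction under any alternative run. Of 2588 values of single members under alternatives, 2469 kept their side of the threshold, 71 gained a call and 48 lost one, and of 294 counts of called members 256 stayed within 1.5 times. *Tnf* and *Il27* kept their calls for CDDO-Me in WT and KEAP1 KO CM in every alternative that tested them.

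The other counts follow, as the number of 10 members called. With array weights the count was 2 for WT/vehicle against Media/vehicle, 2 for KEAP1 KO/vehicle against Media/vehicle, 2 for WT/vehicle against NRF2 KO/vehicle, 2 for CDDO-Me in control media, 1 in NRF2 KO CM, 6 for the WT CM effect minus that in control media, and 8 for WT/CDDO-Me against Media/CDDO-Me. With the replicate number as a block it was 2 for KEAP1 KO/vehicle against Media/vehicle (*Il15* added, adjusted p = 0.0178), 2 for WT/vehicle against NRF2 KO/vehicle (*Tnf*, adjusted p = 0.0285, and *Il1rn*, -1.61, adjusted p = 0.00942) and 4 for the WT CM effect minus that in control media (*Il10* and *Il15* added, adjusted p = 0.0266 and 0.000133). The block also added *Il1b* in WT CM (adjusted p = 0.025) and *Il10* in KEAP1 KO CM (adjusted p = 0.0369) to the CDDO-Me calls, and in these comparisons, where not every pair of libraries deviated together, 22 of 24 libraries over the series had their highest mean r with their own number. It took no member's call away, and over all genes it moved the calls from 1003 to 1734 for WT/vehicle and from 1087 to 1770 for KEAP1 KO/vehicle against Media/vehicle, from 1 to 4 for NRF2 KO/vehicle against Media/vehicle, from 1457 to 2568 for WT/vehicle against NRF2 KO/vehicle, from 821 to 1466 for CDDO-Me in control media and from 7 to 28 for KEAP1 KO/CDDO-Me against WT/CDDO-Me.

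Without the 2 libraries with few genes (replicate 3 of NRF2 KO/vehicle and NRF2 KO/CDDO-Me) it was 1 for WT/vehicle against NRF2 KO/vehicle, 0 for CDDO-Me in NRF2 KO CM and 4 for the WT CM effect minus that in control media. With the block and without these libraries, an alternative chosen after the values were seen, it was 3, 2 and 2 for WT/vehicle and KEAP1 KO/vehicle against Media/vehicle and WT/vehicle against NRF2 KO/vehicle, 2 for CDDO-Me in control media, 1 in NRF2 KO CM, 6 for the WT CM effect minus that in control media, 8 for WT/CDDO-Me against Media/CDDO-Me and 1 for KEAP1 KO/CDDO-Me against WT/CDDO-Me (*Il1b*, adjusted p = 0.00981).

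With the groups alone it was 2 for CDDO-Me in control media, 1 in NRF2 KO CM and 4 for the WT CM effect minus that in control media. Genes of mean TPM of at least 5 gave 1 for WT/vehicle against NRF2 KO/vehicle and 0, 4 and 1 for CDDO-Me in control media, WT CM and NRF2 KO CM, since *Il1a*, *Il6* and *Il10* were then not tested. A pseudocount of 0.1 or 0.5 gave 1 for WT/vehicle against NRF2 KO/vehicle, and a pseudocount of 0.1 or no filter gave 1 for CDDO-Me in NRF2 KO CM. Leaving out 1 library at a time gave 0 to 1 for WT/vehicle against NRF2 KO/vehicle and 0 to 2 for CDDO-Me in NRF2 KO CM. Except where stated, the cause was not tested.

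Without scaling, the share of higher calls over all genes moved from 58.9% to 48.2% for WT/vehicle against Media/vehicle, from 61.5% to 44.2% for WT/vehicle against NRF2 KO/vehicle, from 49.9% to 39.1% and from 50.5% to 34.6% for CDDO-Me in WT and KEAP1 KO CM, from 56.9% to 40.5% for the KEAP1 KO CM effect minus that in control media and from 51.1% to 33.6% for WT/CDDO-Me against Media/CDDO-Me. Without a known depth of each library, the counting error of *Il6*, *Il12b* and the other low members cannot be given.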
